A study of Arabidopsis thaliana with 9 samples.

Results

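Seedlings of an Arabidopsis thaliana line carrying the rice gene OsSAP11 were set directly against seedlings of a line carrying the rice gene OsRLCK253. The comparison takes 6 of the 9 Affymetrix arrays of the series, chosen by their sample labels alone. These are 3 arrays of OsSAP11 line 22 and 3 arrays of OsRLCK253 line 25. The other 3 arrays hold untransformed wild type, whose levels are given only as background. All plants had the ecotype labelled col 1, were 21 days old and untreated, and had grown on MS medium with no antibiotic. With 1 line per transgene, effects of the transgene and of the line that holds it cannot be told apart. Neither the promoter nor the insertion site is given in those labels. The labels call the arrays biological replicates and do not say that they came from separate cultures, so the p values measure the spread between these samples.

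OsSAP11 belongs to the stress-associated proteins, a plant family whose zinc fingers are of the A20 and AN1 types. OsRLCK253 is a receptor-like cytoplasmic kinase, a protein kinase without an extracellular domain. The 2 rice proteins are known to bind each other and to raise the tolerance of Arabidopsis to abiotic stress. The seedling transcripts that respond to such stress overlap with those of the circadian clock, a network of repressors that times transcription over the day. Clock, light and sugar signals also set the levels of starch-degrading enzymes, of flavonoid enzymes and of cold-regulated genes. The question here is which of these functions separate the lines in the absence of stress. The rice transgenes themselves were not analysed here.

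Signals are linear intensities as deposited, and each test used log2(signal + 16) in limma over all 9 arrays. A call needed an adjusted p under 0.05 over 22746 probe sets. Each log2 difference is the OsSAP11 line minus the OsRLCK253 line, with the standard error of the model (SE), and each fold is that of the signals with 16 added, which understates the difference of dim genes. In these bulk samples, fewer cells that express a gene and less RNA per cell cannot be told apart.

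Of the 22746 probe sets, 1185 were called (5.21%), of which 760 were higher in the OsSAP11 line (3.34%) and 425 were lower (1.87%). Differences of at least 2-fold were called for 143 probe sets (0.629%), with 92 higher (0.404%) and 51 lower (0.224%). Past 4-fold lay 9 called probe sets that were higher and 3 that were lower. The median size of a called difference was 0.53 on the log2 scale, and the median difference of all probe sets was -0.012. Of the calls, 64.1% were higher in the OsSAP11 line, and after centring each array on its median the share was 50.5%. Over 19 other settings of the fit, each at the same threshold, it ran from 38.3% with array weights to 71.3% without OsSAP11 replicate 3, so neither direction held the majority throughout. Leaving out OsSAP11 replicate 1, 2 or 3 lowered the number of calls to 564, 485 or 449. A fit of the 6 arrays alone gave 609 calls. Only 592 of the called probe sets name exactly 1 gene, and 94 of these carry a gene symbol in RefSeq. The plot of difference against level shows both sides of the comparison.

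**Figure D1:**
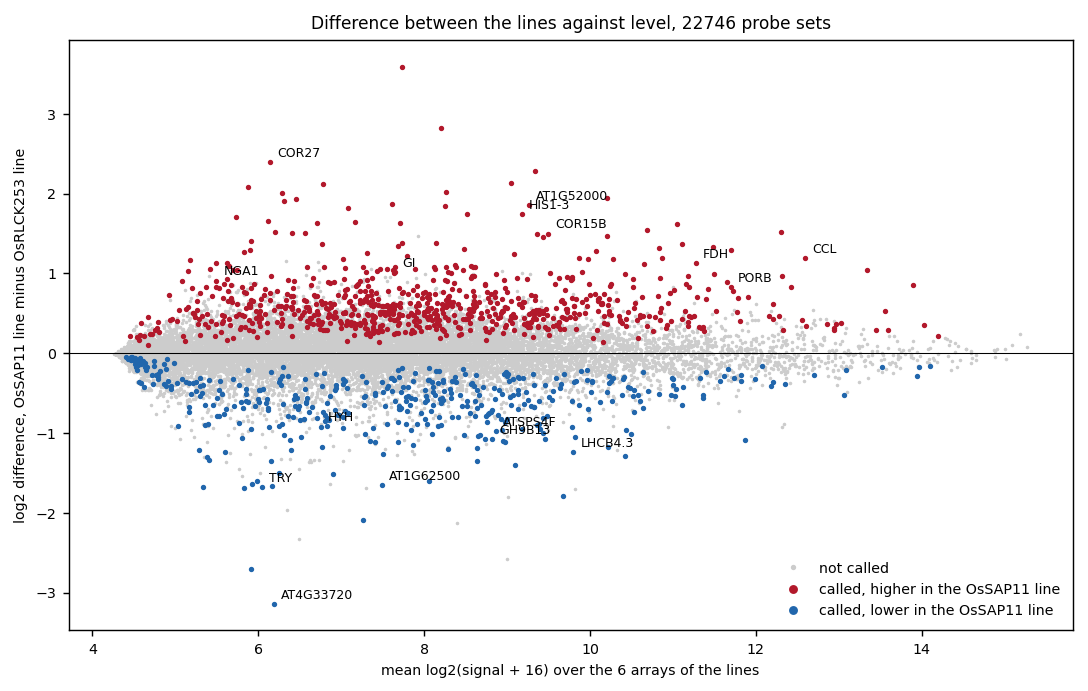
Each point is 1 of 22746 probe sets, with its mean log2(signal + 16) over the 6 arrays of the lines on the horizontal axis and its log2 difference, OsSAP11 line minus OsRLCK253 line, on the vertical axis. Red points are the 760 called higher, blue points the 425 called lower and grey points those not called, and some named genes are labelled.

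No control measurement of the arrays passed a test between the lines, and 3 arrays each limit what such a test can show. Array medians of the signal lay between 42.9 and 46.2 on the 9 arrays. Of 18 probe sets for hybridisation spike-ins, 5 were higher and 13 lower in the OsSAP11 line and the median log2 difference was -0.10 (two-sided exact permutation p = 0.5 for their mean). Of 27 probe sets for poly-A spike-ins, 10 were higher and 17 lower, with a median of -0.038 (exact permutation p = 1.0 for their mean). The log2 ratio of 3' to 5' signal, a measure of RNA integrity, was higher in the OsSAP11 line for 2 of 6 control pairs, with differences between -0.17 and 0.081 (exact permutation p from 0.3 to 0.9). An exact permutation p of 0.1 is the smallest that 3 arrays against 3 allow. Of 6 green-tissue genes measured, 4 had a lower mean in the OsSAP11 line and 1, LHCB4.3, was called lower, as given further on. Of all 22746 probe sets, 13973 had a lower mean and 1.87% were called lower, so 4 of 6 is near the share of all probe sets. LHCB4.1, an antenna protein gene, had signals of 21076, 22660.1 and 21573 in the OsSAP11 line and 22173, 21013 and 21640.5 in the OsRLCK253 line. RCA, the Rubisco activase gene, had 22889, 25120.2 and 23408 in the OsSAP11 line and 25758, 25248 and 26442 in the OsRLCK253 line (adjusted p = 0.272). SBPASE, a Calvin cycle phosphatase gene, had 5833, 5259 and 5209.7 in the OsSAP11 line and 6465, 7614 and 6641 in the OsRLCK253 line (adjusted p = 0.0538). In RCA and SBPASE the OsSAP11 arrays were lower with no overlap, and neither gene was called. The lines did not overlap, in either direction, in 34.8% of the probe sets with a mean signal of 16 or more. PYK10, a beta-glucosidase gene of roots, had 6297, 7777 and 6879 in the OsSAP11 line and 8446, 6499 and 9038 in the OsRLCK253 line. EXPA7, a root hair expansin gene, had 8.3, 8.54 and 15.5 in the OsSAP11 line and 27.6, 13.9 and 29.0 in the OsRLCK253 line. Both root genes had a lower mean in the OsSAP11 line and overlapping arrays, and neither was called (adjusted p = 0.432 and 0.129). The part of tissue makeup in the results was not tested, and no flower or seed marker of the lists was measured by a probe set that names it.

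Some genes of the circadian clock and of the evening were among the most different named genes that were higher in the OsSAP11 line. The list of such genes has 35 loci, of which only 5 matched a probe set that names exactly 1 gene. CCA1, LHY, TOC1 and ELF3 were not among those measured. Of 5 measured genes of that list, 3 were called and all 3 were higher in the OsSAP11 line, against 3.34% of all probe sets called in that direction. The median log2 difference of the list was 1.02. All lists used here were chosen with earlier results of these data known, so such counts describe the lists and do not test them. COR27, a cold-regulated repressor within the clock, had signals of 123, 140.0 and 179 in the OsSAP11 line and 21.4, 11.6 and 12.2 in the OsRLCK253 line, against 951, 749.6 and 872 in wild type. Every OsSAP11 array lay far above every OsRLCK253 array, and both lines lay far below wild type. Its log2 difference was 2.39 ± 0.17 (5.25-fold, adjusted p = 0.00321), and it was called in all 19 alternatives that kept the threshold of 0.05.

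GI encodes GIGANTEA, a protein that links the clock to flowering and to the breakdown of clock repressors. Its signals were 209, 327 and 289.9 in the OsSAP11 line and 121, 118 and 139 in the OsRLCK253 line, against 435, 436 and 448 in wild type. The lines did not overlap, and the OsRLCK253 line stood farther from wild type. The log2 difference was 1.02 ± 0.15 (2.03-fold, adjusted p = 0.0168), and the call was lost without OsSAP11 replicate 3 (adjusted p = 0.061). The third called member, AT4G33980, placed in the list by its locus code, had 78.7, 111 and 139 in the OsSAP11 line and at most 31.2 in the OsRLCK253 line, against 506, 552 and 530.5 in wild type. This gave a log2 difference of 1.65 ± 0.19 (adjusted p = 0.00913), with no overlap between the lines. The other members, AT5G52660 and the dim AT1G69570, had log2 differences of -0.15 and 0.15 and were not called. CCL, whose transcript stability is known to be under clock control, is no list member and was chosen after its values were seen. It had 7781, 9369 and 11304 in the OsSAP11 line and 3287, 4237 and 4879 in the OsRLCK253 line, against 14039.8, 15538 and 11841 in wild type. The fold between the lines was 2.29 (adjusted p = 0.0225), and its call was lost without OsSAP11 replicate 2 or 3 (adjusted p from 0.0683 to 0.0724).

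**Figure D2:**
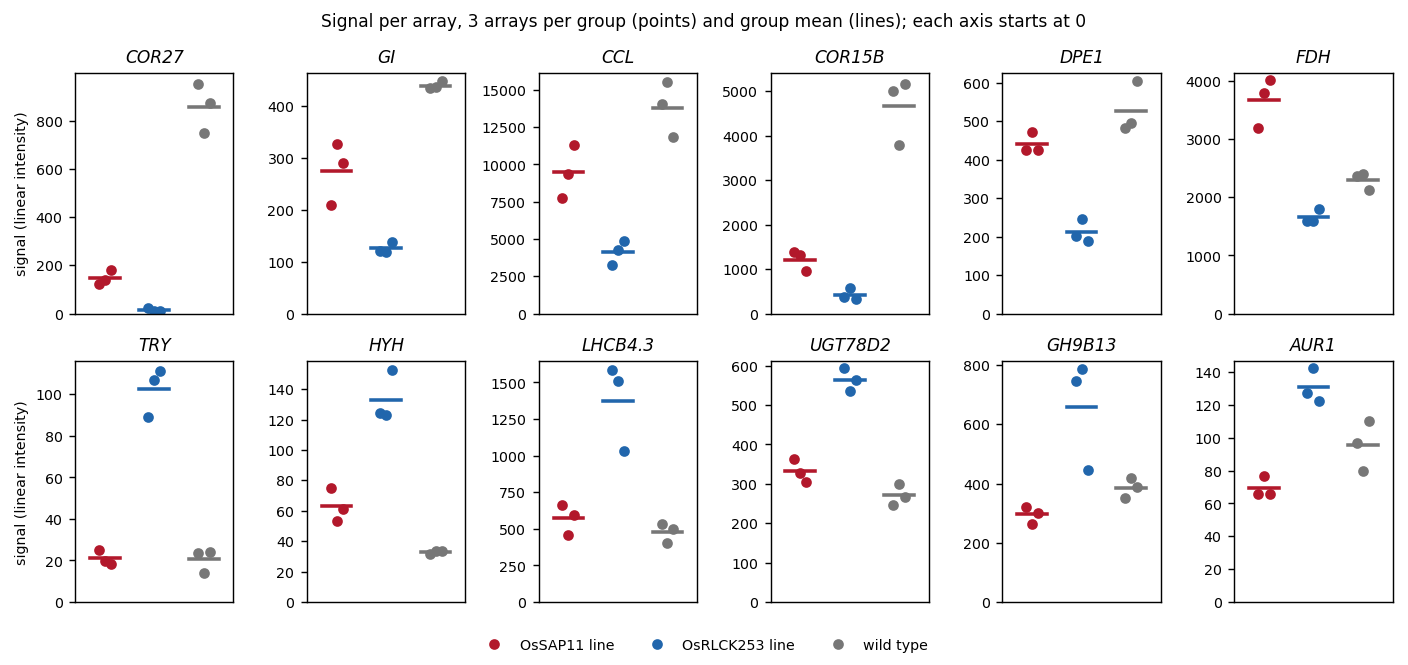
Signal on each array (linear intensity, each axis starting at 0) for 12 genes, with OsSAP11 line arrays in red, OsRLCK253 line arrays in blue and wild type arrays in grey, and a line at each group mean of 3 arrays. The upper row holds genes that were higher in the OsSAP11 line and the lower row genes that were lower, and the red and blue points do not overlap in any panel.

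Of 29 loci of the cold and drought list, 5 were measured. Of these 5, 1 was called, COR15B, which was higher in the OsSAP11 line, against 3.34% of all probe sets called in that direction. The median log2 difference of the list was 0.17. COR15B encodes a chloroplast protein that protects membranes in the cold. Its signals were 1373, 1312 and 954 in the OsSAP11 line and 370.1, 565 and 337 in the OsRLCK253 line, against 5015, 3789 and 5172 in wild type. The lines did not overlap, and the OsSAP11 line was 2.83-fold higher (adjusted p = 0.0206). The call was lost without OsSAP11 replicate 1 or 2 or without OsRLCK253 replicate 3 (adjusted p from 0.0534 to 0.071). COR15A, its close relative, had 2558, 3179.8 and 1386 in the OsSAP11 line and 1480.4, 2193 and 1243 in the OsRLCK253 line, with overlapping arrays (log2 difference 0.49 ± 0.35, adjusted p = 0.371). Near-identical copies such as this pair can share hybridisation signal, so the split between them is uncertain. The dehydrin genes COR47 and LTI30 had log2 differences of -0.0091 and -0.34, and LEA4-5, a dim gene, had 0.17. The Arabidopsis SAP genes, relatives of OsSAP11, had 6 of 13 loci matched to a probe set that names exactly 1 gene, and 0 of the 6 were called, with log2 differences from -0.49 to 0.30 and a median of -0.063. The limma fit gave 1 of the 6 an unadjusted p under 0.05, against 26.4% of all probe sets. This was AT4G22820, with a log2 difference of -0.18 ± 0.042 (adjusted p = 0.0615).

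Among the 20 genes with the largest called differences that were higher in the OsSAP11 line, 17 have a locus code and no symbol in the tables used. Absence of overlap between the lines was a condition for all 20, COR27, AT4G33980 and COR15B among them. The 20 log2 differences ran from 1.31 to 2.39, and 14 of the genes were called in all 9 fits that left out 1 array. HIS1-3, a linker histone variant induced by drought, had 993, 1062 and 1079 in the OsSAP11 line and 198, 319.7 and 427 in the OsRLCK253 line, against 514, 576 and 372 in wild type. Its log2 difference was 1.74 ± 0.28 (adjusted p = 0.0206), with the OsSAP11 arrays above both other groups. The call was lost without any 1 of the OsSAP11 arrays (adjusted p from 0.0602 to 0.0721). AT1G07050 had 84.7, 120.1 and 114 in the OsSAP11 line and 15.0, 16.3 and 7.3 in the OsRLCK253 line, against 656, 564 and 681 in wild type. AT1G11210 had 117, 129 and 181 in the OsSAP11 line and 25.0, 21.4 and 22.3 in the OsRLCK253 line, against 464, 402 and 401 in wild type. AT5G62360 had 97.0, 96.6 and 137 in the OsSAP11 line and 28.2, 26.5 and 28.3 in the OsRLCK253 line, against 835, 752 and 707 in wild type. In these 3 genes the OsSAP11 line lay between the OsRLCK253 line and wild type, with log2 differences of 2.08 ± 0.17, 2.01 ± 0.14 and 1.51 ± 0.12 (adjusted p = 0.00375, 0.00321 and 0.00406). AT1G56300, AT4G16146, AT4G01130, AT1G76590, AT4G19390, AT4G30650 and AT4G33980 were called in every such fit as well, and the wild type mean was above the OsSAP11 mean in all 7 of them.

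A different order held for AT1G62290, which had 594, 563 and 526 in the OsSAP11 line and 116, 170.2 and 153 in the OsRLCK253 line, against 129.9, 119 and 145 in wild type. The OsSAP11 line alone stood high, with a log2 difference between the lines of 1.84 ± 0.13 (3.59-fold, adjusted p = 0.00321). AT1G52000 had 1244, 1085 and 1149.5 in the OsSAP11 line and 182, 389 and 407 in the OsRLCK253 line, against 398, 314 and 463 in wild type. The log2 difference between the lines was 1.86 ± 0.30 (adjusted p = 0.0216), and the call was lost without any 1 of the OsSAP11 arrays (adjusted p from 0.0658 to 0.0737). AT5G45310 averaged 81.9 ± 23.4 in OsSAP11 seedlings and 13.5 ± 4.05 in OsRLCK253 seedlings, against 30.9 ± 4.87 in wild type (SD, n = 3 each; log2 difference 1.71 ± 0.18, adjusted p = 0.00736). AT4G26370, AT3G62550, AT4G32340 and AT4G34950 complete the 20, with log2 differences of 1.31, 1.33, 1.46 and 1.49. AT4G34950 was called in 2 of the 9 fits that left out 1 array, AT4G32340 in 5, AT3G62550 in 8 and AT4G26370 in 9.

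DPE1, PWD, ATSPS4F and FDH belong to no list, were chosen after their values were seen and went in both directions. DPE1, a plastid glucanotransferase, and PWD, a glucan phosphorylating enzyme, both act in starch breakdown. DPE1 had 425, 472 and 426 in the OsSAP11 line and 201, 245 and 189 in the OsRLCK253 line, against 483, 496 and 606 in wild type (log2 difference 1.01 ± 0.12, adjusted p = 0.00913). PWD had 1039, 986 and 1223 in the OsSAP11 line and 594, 619 and 461 in the OsRLCK253 line, against 1284, 1259.9 and 1458 in wild type (log2 difference 0.94 ± 0.13, adjusted p = 0.0151). Both were called in all 9 fits that left out 1 array, with no overlap between the lines and wild type nearer to the OsSAP11 line. Of the 10 other alternatives at the same threshold, DPE1 was called in 10 and PWD in 8. ATSPS4F, a sucrose phosphate synthase gene, went the other way, with 363, 317 and 281 in the OsSAP11 line and 606, 655 and 656 in the OsRLCK253 line, against 539.7, 584 and 632 in wild type. This gave a log2 difference of -0.97 ± 0.097 (adjusted p = 0.00651), and the OsSAP11 line was the low one of the 3 groups. FDH, the mitochondrial formate dehydrogenase gene, had 3187, 3799.5 and 4023 in the OsSAP11 line and 1600.2, 1588 and 1798 in the OsRLCK253 line, against 2375, 2405 and 2131 in wild type (log2 difference 1.13 ± 0.099, adjusted p = 0.00491). Here wild type lay between the lines, which did not overlap with it or with each other.

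Of 8 measured genes of amino acid breakdown, 3 were called, all higher in the OsSAP11 line, against 3.34% of all probe sets. A higher mean there was seen in 8 of 8, and in 8773 of the 22746 probe sets. The median log2 difference was 0.35, against -0.012 for all probe sets and 0.036 for those with a mean signal of 16 or more. Of the 8, 0 had both line means under 16, while all probe sets include 9027 with a mean signal under 16. ETFQO, which passes electrons from branched-chain amino acid oxidation to ubiquinone, had 121, 122 and 120.2 in the OsSAP11 line and 91.4, 72.5 and 82.7 in the OsRLCK253 line (log2 difference 0.49 ± 0.064, adjusted p = 0.0123). Its call held in all 9 fits that left out 1 array and in 9 of the 10 other alternatives at the same threshold. MCCB, a subunit of the leucine-degrading methylcrotonyl-CoA carboxylase, had a log2 difference of 0.36 ± 0.06, and ALDH6B2, a dehydrogenase of valine breakdown, had 0.40 ± 0.08. Their calls were lost in 4 and 7 of the fits that left out 1 array, including those without OsSAP11 replicate 1, 2 or 3 (adjusted p up to 0.0784 and 0.121). D2HGDH, MCCA, IVD, ETFBETA and AT4G33150 had log2 differences of 0.58, 0.35, 0.18, 0.18 and 0.053 and were not called. Of 5 sugar-repressed carbon starvation genes, 1 was called, and it was lower in the OsSAP11 line, against 1.87% of all probe sets called in that direction. PPDK, the pyruvate phosphate dikinase gene, had 298, 251 and 272 in the OsSAP11 line and 410.1, 456 and 549 in the OsRLCK253 line, against 158, 183 and 162 in wild type (log2 difference -0.74 ± 0.12, adjusted p = 0.0194). That call was lost without OsSAP11 replicate 2 or 3 (adjusted p from 0.0643 to 0.067). AT3G15450 and AT3G15630 had log2 differences of 0.99 and 0.64 and were not called (adjusted p = 0.105 and 0.109), with EXO at -0.52 and AKINBETA1 at 0.21.

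Of 9 measured SWEET sugar transporter genes, 1 was called, against 5.21% of all probe sets. SWEET4 had 241, 223 and 254 in the OsSAP11 line and 88.7, 138 and 98.1 in the OsRLCK253 line, against 130.0, 116 and 113 in wild type. Its log2 difference was 1.06 ± 0.14 (adjusted p = 0.0133), and the call was lost without OsSAP11 replicate 3 (adjusted p = 0.0518). SAG29, the member of the family named for its rise in senescing leaves, had 428, 414 and 330.1 in the OsSAP11 line and 82.8, 221 and 117 in the OsRLCK253 line, against 7.65, 38.4 and 9.4 in wild type. The lines did not overlap, but the spread among arrays was wide and the gene was not called (log2 difference 1.47 ± 0.42, adjusted p = 0.0999). The other 7 had log2 differences from -0.58 for SWEET13 to 0.63 for SWEET1. Of 12 autophagy genes, 0 were called by limma and 3 had an unadjusted p under 0.05, a share near the 26.4% of all probe sets. Of the 12, 10 had a higher mean in the OsSAP11 line, as had 8773 of the 22746 probe sets, and the median was 0.14. That background holds 9027 probe sets with a mean signal under 16, while 0 of the 12 had both line means under 16. The median of the brighter probe sets was 0.036. The lowest adjusted p among them was 0.0809, for ATG3, a conjugating enzyme of autophagosome formation. Of 7 aldehyde dehydrogenase genes, 1, ALDH7B4, was called higher in the OsSAP11 line, against 3.34% of all probe sets. It had a log2 difference of 0.53 ± 0.10 (adjusted p = 0.0354) and lost its call in 7 of 9 fits that left out 1 array (adjusted p up to 0.0962).

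Flavonoid genes lay on the other side. The list of flavonoid and anthocyanin synthesis and its regulators has 36 loci, of which 8 were measured. All 8 had a lower mean in the OsSAP11 line, as had 13973 of the 22746 probe sets. Of the 8, 3 were called lower, against 1.87% of all probe sets called in that direction, and the median log2 difference was -0.91. TRY, an R3-type MYB repressor known from trichome patterning, had 25.0, 19.6 and 18.3 in the OsSAP11 line and 89.3, 107 and 111 in the OsRLCK253 line, against 23.7, 13.9 and 24.2 in wild type. The OsRLCK253 line alone was high, and the log2 difference was -1.68 ± 0.14 (3.2-fold, adjusted p = 0.00411). UGT78D2, a flavonoid glucosyltransferase gene, had 363, 327 and 305 in the OsSAP11 line and 594, 536 and 563 in the OsRLCK253 line, against 246, 299 and 268 in wild type. Between the lines the log2 difference was -0.74 ± 0.085 (adjusted p = 0.00913), with no overlap between the lines. Both TRY and UGT78D2 were called in all 19 alternatives. UGT78D1, a flavonol rhamnosyltransferase gene, had 846, 699.8 and 582 in the OsSAP11 line and 1033, 1074 and 1089 in the OsRLCK253 line (log2 difference -0.59 ± 0.12, adjusted p = 0.0448). Its call was lost in all fits that left out 1 array but that without OsSAP11 replicate 1 (adjusted p up to 0.119).

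The anthocyanin enzymes were more variable between arrays. DFR, the dihydroflavonol reductase gene, had 489.5, 332 and 245 in the OsSAP11 line and 805, 840.0 and 545 in the OsRLCK253 line, against 50.6, 109 and 47.4 in wild type. UF3GT, an anthocyanin xylosyltransferase gene, had 209, 168 and 113 in the OsSAP11 line and 404, 428 and 218 in the OsRLCK253 line, against 18.8, 47.4 and 25.6 in wild type. In both genes the lines did not overlap and wild type was below both lines. Neither was called, with log2 differences of -1.03 ± 0.36 and -1.01 ± 0.35 (adjusted p = 0.139 and 0.14). CHIL, a chalcone isomerase-like gene, had -0.89 (adjusted p = 0.0621), AT4G14090 had -0.93 and AT5MAT, an anthocyanin malonyltransferase gene, had -0.52. The median of the list was -0.68 without OsSAP11 replicate 3 and -1.09 without OsSAP11 replicate 1.

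Light signalling genes gave no call, but a related gene did. HYH, the homologue of the light-response regulator HY5, was chosen after its values were seen. Its signals were 75.1, 53.0 and 61.2 in the OsSAP11 line and 124, 123 and 152 in the OsRLCK253 line, against 31.3, 33.5 and 33.6 in wild type. Both lines lay above wild type, the OsRLCK253 line farther, with a log2 difference of -0.92 ± 0.11 (1.89-fold, adjusted p = 0.0109) that was called in all 19 alternatives but is not a call at a threshold of 0.01. Of the 4 measured genes of light signalling, 0 were called by limma and 3 had an unadjusted p under 0.05, against 26.4% of all probe sets, and the median log2 difference was -0.57. AFR, an F-box gene of phytochrome A signalling, had 255, 239.6 and 218 in the OsSAP11 line and 378, 544 and 643 in the OsRLCK253 line, against 78.8, 119 and 71.4 in wild type. It missed the threshold (log2 difference -1.05 ± 0.23, adjusted p = 0.0513) and was called in 2 of the 9 fits that left out 1 array. AT3G44450 and AT3G52740 had log2 differences of -0.74 and -0.40 (adjusted p = 0.0711 and 0.0801). Of 6 photosynthesis genes, 1 was called, against 5.21% of all probe sets. LHCB4.3, an antenna protein of photosystem II, had 665, 457 and 591 in the OsSAP11 line and 1586, 1508 and 1034 in the OsRLCK253 line, against 535, 403 and 502 in wild type. The log2 difference between the lines was -1.24 ± 0.21 (adjusted p = 0.0256), and the call was lost in 5 of the 9 fits that left out 1 array, among them each fit without an OsSAP11 array (adjusted p up to 0.0778). Its relatives LHCB4.1 and LHCB4.2 had log2 differences of 0.01 and -0.037.

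**Figure D3:**
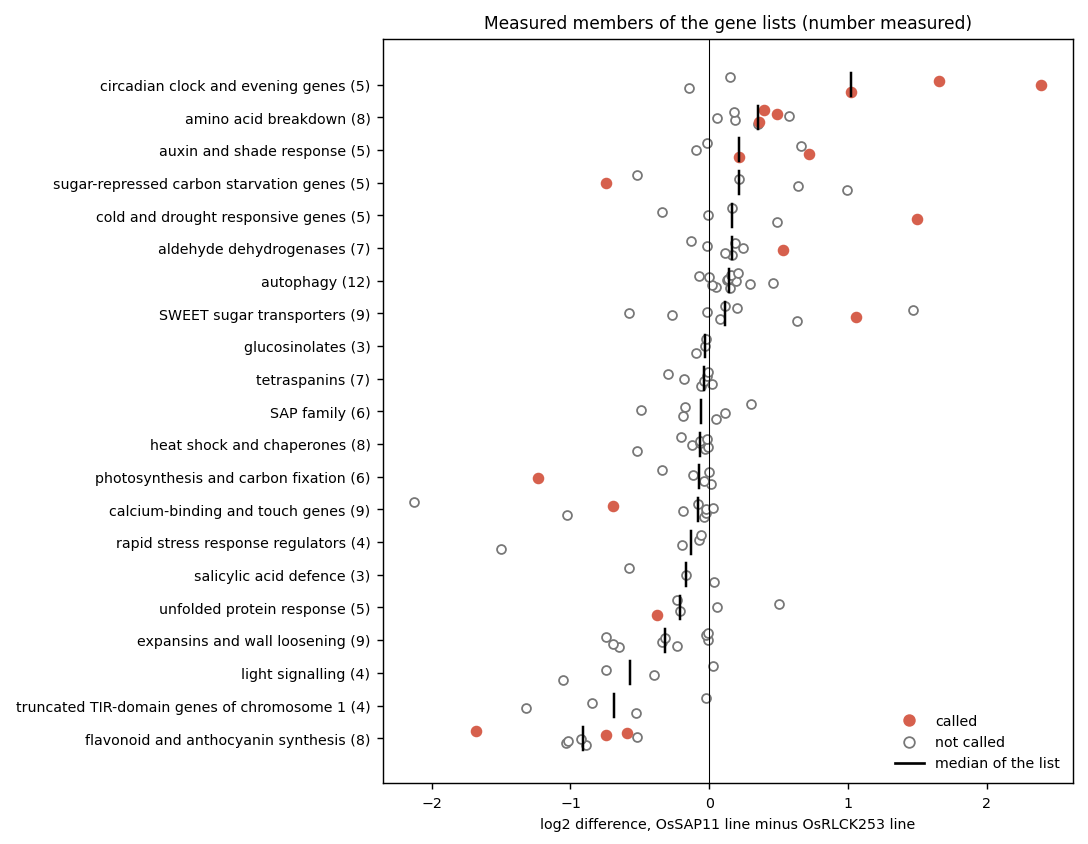
Each point is 1 measured gene of a list (the number measured stands beside the list name), placed by its log2 difference, OsSAP11 line minus OsRLCK253 line, and filled where it was called. Lists with 1 or 2 measured genes, such as jasmonate and ethylene, are left out. Black bars are medians of the lists shown, which run from 1.02 for circadian clock and evening genes to -0.91 for flavonoid and anthocyanin synthesis. Most points lie near 0 and were not called.

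Among the 20 genes with the largest called differences that were lower in the OsSAP11 line, TRY, LHCB4.3 and GH9B13 have symbols. The log2 differences ran from -3.14 to -1.08, and 9 of the 20 genes were called in all 9 fits that left out 1 array. AT2G27420 had 11.4, 11.0 and 9.17 in the OsSAP11 line and 54.8, 50.1 and 43.9 in the OsRLCK253 line, against 9.1, 9.55 and 7.4 in wild type. Its OsSAP11 signals were near background and the log2 difference was -1.30 ± 0.068 (adjusted p = 0.00219). AT5G42760 had 41.2, 20.8 and 28.8 in the OsSAP11 line and 106, 124 and 107 in the OsRLCK253 line, against 14.9, 15.8 and 13.8 in wild type (log2 difference -1.49 ± 0.15, adjusted p = 0.00651). AT1G65490 had 980.0, 725 and 911 in the OsSAP11 line and 2286, 1956 and 2152 in the OsRLCK253 line, against 1431, 1333 and 1201 in wild type (log2 difference -1.28 ± 0.12, adjusted p = 0.00624). The OsRLCK253 line was the high group in all 3 genes. AT3G55710 showed another order, with 6.24, 7.08 and 6.49 in the OsSAP11 line and 38.2, 52.3 and 84.6 in the OsRLCK253 line, against 113, 105 and 85.1 in wild type. The OsSAP11 line alone was near background there (log2 difference -1.67 ± 0.22, adjusted p = 0.0121). AT1G10640, AT1G19530 and AT3G56290 had log2 differences of -1.19, -1.18 and -1.10.

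Other genes of the 20 were called less steadily when 1 array was left out. AT4G33720 had 10.8, 11.3 and 4.36 in the OsSAP11 line and 295, 274 and 96.4 in the OsRLCK253 line, against 167, 32.4 and 235 in wild type. Its log2 difference was -3.14 ± 0.68 (adjusted p = 0.0498), and the call was lost in each fit that left out 1 array but that without wild type replicate 2 (adjusted p up to 0.147). The difference itself stayed between -3.61 and -2.88 in those fits. Absence of overlap between the lines was a condition for being among the 20. AT5G14650, AT3G28500, AT1G62500, AT1G76960, AT2G47880 and AT2G41800 had log2 differences from -1.69 for AT5G14650 to -1.21 for AT2G47880. They lost their calls in 2 or 3 of these fits, each without an OsSAP11 array or, for AT2G41800 in 1 case, without OsRLCK253 replicate 3 (adjusted p up to 0.0832). AT3G15310 had -1.35 ± 0.29 and lost its call in 7 of them (adjusted p up to 0.148). GH9B13, an endoglucanase gene of cell walls, had 321, 265 and 301 in the OsSAP11 line and 747, 787 and 447 in the OsRLCK253 line (log2 difference -1.08 ± 0.21, adjusted p = 0.0376). Its call was lost in 8 of the 9 fits (adjusted p up to 0.113). Of 9 measured expansin and XTH genes, which act in wall loosening, 0 were called by limma and 4 had an unadjusted p under 0.05, against 26.4% of all probe sets. All 9 had a lower mean in the OsSAP11 line, as had 13973 of the 22746 probe sets, and their median was -0.32. That median was -0.17 without OsRLCK253 replicate 3.

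Hormone and stress lists held few calls, and of all probe sets 3.34% were called higher and 1.87% lower. Most of their loci were not measured, with 3 of 21 for salicylic acid, 1 of 21 for jasmonate and 0 of 13 for abscisic acid. The phosphate starvation and senescence lists also had 0 measured. Both line means were under 16 in 4 of 8 heat shock, 2 of 4 rapid stress and 5 of 9 calcium genes. The low number of calls therefore does not show that these functions are alike in the lines. Of 5 auxin and shade genes, HAT2, a homeodomain gene induced by auxin and shade, was called higher in the OsSAP11 line. It had 160.1, 158 and 188 in the OsSAP11 line and 91.0, 95.0 and 103 in the OsRLCK253 line (log2 difference 0.72 ± 0.088, adjusted p = 0.0104), and it was called in all 19 alternatives but is not a call at a threshold of 0.01. IAA29, an auxin response repressor gene, was also called higher, with signals under 16 on every array of both lines, a log2 difference of 0.22 ± 0.045, and a call lost in 8 of the 9 fits that left out 1 array (adjusted p up to 0.14). Of 9 calcium-binding and touch genes, CML42 was called lower in the OsSAP11 line (-0.69 ± 0.15, adjusted p = 0.0483), and it lost its call in 8 of those fits (adjusted p up to 0.121). Of 5 genes of the unfolded protein response, the calreticulin gene CRT1b was called lower (-0.38 ± 0.063, adjusted p = 0.0244), with its call lost without OsSAP11 replicate 1 or any 1 of the OsRLCK253 arrays (adjusted p from 0.0505 to 0.0625). No member was called by limma among 8 heat shock and chaperone genes, 4 rapid stress response regulators, 3 salicylic acid genes, 4 truncated TIR-domain genes, 7 tetraspanin genes, 3 glucosinolate genes or 2 reference genes. Their medians were -0.069, -0.13, -0.17, -0.69, -0.041, -0.030 and -0.025. At an unadjusted p under 0.05 these lists held 1 gene, of the salicylic acid list. No call was made for 2 genes each of ethylene, cytokinin, iron and oxidative stress, for the 2 root markers, or for the 1 measured gene each of nitrate response and jasmonate.

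Variation within the OsRLCK253 line was wide for several stress genes. STZ, a zinc-finger repressor of stress responses, had 14.4, 12.8 and 50.8 in the OsSAP11 line and 320.1, 14.9 and 110.5 in the OsRLCK253 line, against 1374, 1459.9 and 1100.1 in wild type. AT4G27280 had 136, 88.7 and 247 in the OsSAP11 line and 1738, 142 and 1243 in the OsRLCK253 line, against 3682, 3532 and 2749 in wild type. CML38, a calmodulin-like gene, had 27.4, 14.5 and 16.1 in the OsSAP11 line and 91.5, 35.9 and 48.1 in the OsRLCK253 line, against 707, 423 and 383 in wild type. In these 3 genes OsRLCK253 replicate 2 was the lowest array of its line, close to the OsSAP11 arrays. The OsSAP11 means on the log scale were 2.82-fold, 4.36-fold and 2.04-fold below those of the OsRLCK253 line (adjusted p = 0.28, 0.189 and 0.13). The truncated TIR-domain gene AT1G72920 and the defensin gene PDF1.2 were also lowest on that array of the line, with log2 differences of -1.32 ± 0.64 and -1.30 ± 0.60 and no call. Without OsRLCK253 replicate 2 the median of the 4 TIR-domain genes was -1.11, and without OsRLCK253 replicate 1 it was -0.25.

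The wild type mean was placed against the means of both lines for each called probe set. Of the 760 called higher in the OsSAP11 line, 31.1% had a wild type mean at or above that of the OsSAP11 line, 50.0% had it between the lines and 18.9% at or below the OsRLCK253 line. Of the 425 called lower, 32.5% had it at or below the OsSAP11 line, 57.2% between the lines and 10.4% at or above the OsRLCK253 line. Shares for the larger differences were further apart. Of the 92 probe sets called at least 2-fold higher in the OsSAP11 line, 57 (62.0%) had a wild type mean at or above that of the OsSAP11 line. A further 29 (31.5%) had it between the lines, and 6 (6.52%) had it at or below the OsRLCK253 line. Among all 8773 probe sets with a higher mean in the OsSAP11 line the same shares were 31.1%, 27.5% and 41.4%. Of the 51 probe sets called at least 2-fold lower, 16 (31.4%) had a wild type mean at or below that of the OsSAP11 line, 31 (60.8%) had it between the lines, and 4 (7.84%) had it at or above the OsRLCK253 line. Among all 13973 probe sets with a lower mean the shares were 25.3%, 55.9% and 18.9%. These shares are descriptions, since wild type shares the estimate of spread with the lines.

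**Figure D4:**
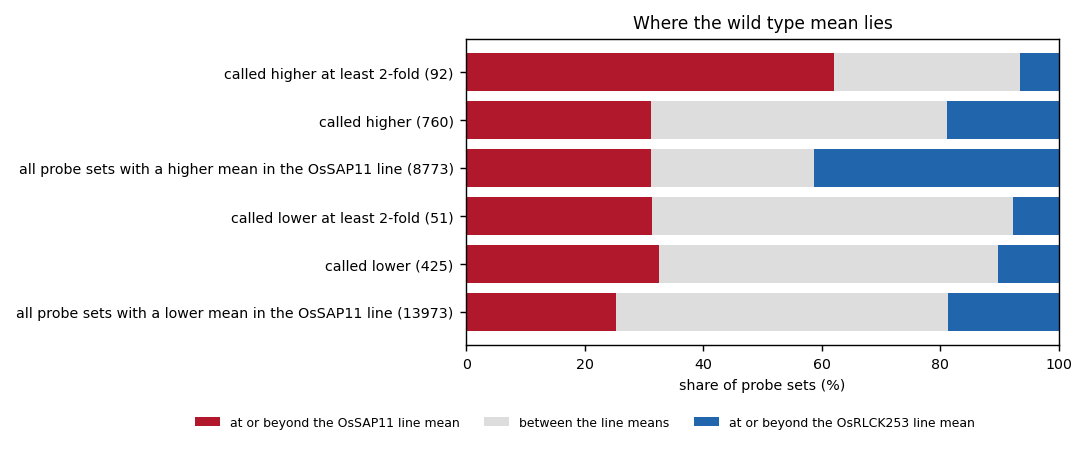
Stacked bars give the share of probe sets (percent) whose wild type mean lay at or beyond the OsSAP11 line mean (red), between the line means (grey) or at or beyond the OsRLCK253 line mean (blue), for the sets named on the left with their size. Of the 92 probe sets called at least 2-fold higher in the OsSAP11 line the red share is 62.0%, against 31.1% of all 8773 with a higher mean.

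Over whole chromosomes, 36 of 2169 measured genes of chromosome 2 were called lower in the OsSAP11 line, and 39 of 1935 of chromosome 4, but the densest single stretch of such calls was on chromosome 2. Windows of 20 consecutive measured genes were searched on each chromosome for each direction, so this stretch was chosen after its values were seen. The window from AT2G19180 to AT2G19460 held 6 called genes, all lower in the OsSAP11 line, and the densest window in the other direction or on another chromosome held 5. From the first to the last of them, both included, there were 12 measured genes, of which 6 had a mean of 16 or more in at least 1 line. Of these 6 all had a lower mean in the OsSAP11 line and 5 were called. AT2G19380, with means under 16, was called as well. Of all 22746 probe sets, 1.87% were called lower and 13973 had a lower mean. The stretch starts and ends at called genes, so its share of calls is in part set by how it was chosen. AT2G19340 had 138, 138 and 147 in the OsSAP11 line and 332, 311 and 355 in the OsRLCK253 line, against 163, 141 and 135 in wild type. The OsRLCK253 line alone was high, with a log2 difference of -1.15 ± 0.074 (adjusted p = 0.00321) that was called in all 19 alternatives. AT2G19385 had 99.8, 86.6 and 97.1 in the OsSAP11 line and 223, 246 and 159.6 in the OsRLCK253 line, against 125, 122 and 135 in wild type (log2 difference -1.01 ± 0.14, adjusted p = 0.0155). Its call was lost without OsSAP11 replicate 2 or 3 (adjusted p from 0.053 to 0.0562). AT2G19310, AT2G19350, AT2G19380 and AT2G19460 had log2 differences of -0.90, -0.42, -0.30 and -1.10 and lost their calls in 9, 8, 5 and 8 of the 9 fits that left out 1 array (adjusted p up to 0.12, 0.0716, 0.089 and 0.148). The OsRLCK253 mean was above the wild type mean in all 6 called genes, and in 5 of them every OsRLCK253 array was above every wild type array. Of all 425 probe sets called lower, only 10.4% had a wild type mean at or above the OsRLCK253 mean. The first count is thus near the share among all such calls, and for the second no share over all probe sets was computed.

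**Figure D5:**
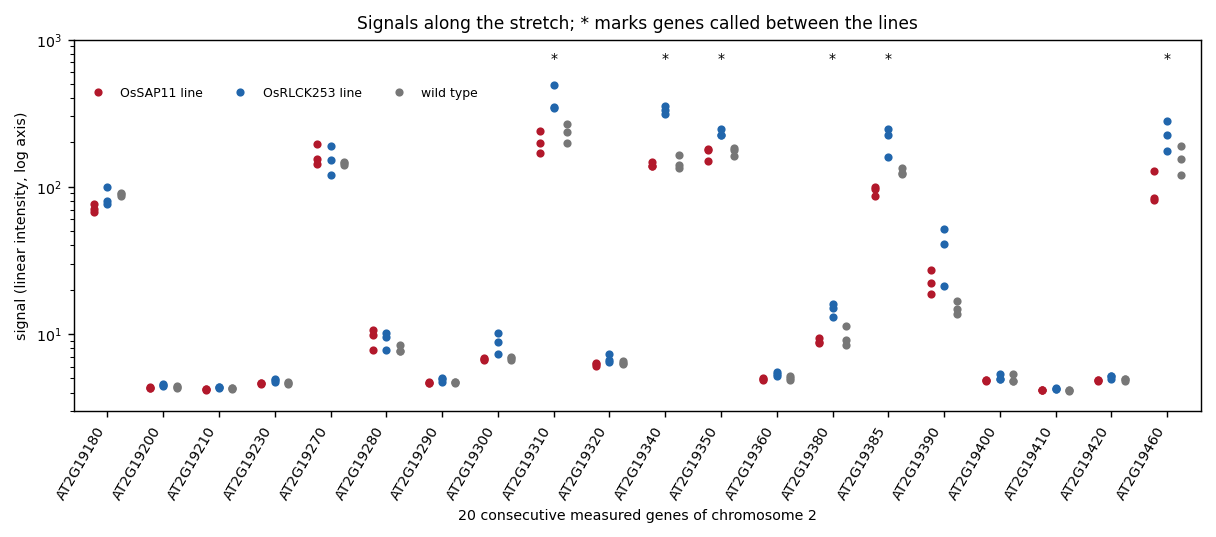
Signals (linear intensity on a log axis) on the 3 arrays of the OsSAP11 line (red), the OsRLCK253 line (blue) and wild type (grey) for 20 consecutive measured genes of chromosome 2, in chromosomal order. Asterisks mark the 6 genes called between the lines, in each of which every OsRLCK253 array lies above every OsSAP11 array. The lines did not overlap, in either direction, in 50.6% of all probe sets.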

How the data were processed

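Biotin-labelled cRNA from seedling total RNA was measured on 9 arrays, 1 per sample. The deposited values are intensities, 1 linear signal per probe set and array, and the submitters' processing notes name GCOS. The sources used here do not give the summarisation, background correction, scaling or detection calls, so a signal under 16 is called dim and no value is called absent. The array number limits the precision.

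From these values log2(signal + 16) was taken, with no further scaling and no filter on signal. Of 22810 probe sets, the 64 controls were left out and 22746 were tested. Of these, 13513 name exactly 1 gene in the platform annotation, 503 name several and 8730 name none. Gene symbols and gene order came from the RefSeq table of assembly TAIR10.1, in which 13436 probe sets were found. Genes without a symbol there are given by locus code with no role, and list membership then rests on the locus code.

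The 9 arrays entered 1 limma fit (version 3.58.1, R 4.3.3) with a mean for each group, 6 residual and 0.773 prior degrees of freedom, and the contrast of the OsSAP11 line with the OsRLCK253 line. P values are two-sided and carry a Benjamini-Hochberg adjustment over all 22746 probe sets. Control probe sets were compared by exact permutation tests. The procedure was tested on simulated data.

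The members and the 34 gene lists, with 608 loci of which 146 were measured, were chosen with earlier results of these data known. Genes named are the 20 largest called differences in each direction (exactly 1 gene, no overlap between the lines, higher line mean above the median probe set), the called members of the lists, all SAP family, TIR-domain, marker and reference genes, and up to 6 uncalled members per list by signal. Other genes are said to be chosen after their values were seen. Where a gene has several probe sets the brightest stands for it. The alternatives tried were median centring, quantile normalization, a pseudocount of 1 or 32, only probe sets with a mean signal above 32, the 6 arrays of the lines alone, a trend with a robust prior, array weights, replicate number as a block, a spread per probe set, a threshold of 0.01, and each array left out in turn.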

Additional observations from a re-analysis of the deposited data

How the results depend on the processing

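No named gene that was called reversed its direction in any of the 19 alternatives that kept the threshold of 0.05, and 44 of the 132 named genes that were called stayed called in all 19. Of those 44, 34 also had an adjusted p under 0.01 as reported. The 1185 calls became 1910 of 12361 probe sets with a mean signal above 32, 609 with the 6 arrays alone, 1809 with a trend and robust prior, 5201 with array weights and 205 at an adjusted p under 0.01. Calls that were higher in the OsSAP11 line numbered 760, with 1182 under the filter, 405 with the 6 arrays alone and 1992 with array weights. Calls that were lower numbered 425, with 812 after median centring, 728 under the filter, 204 with the 6 arrays alone, 909 with the trend and robust prior, 3209 with array weights and 715 with a spread per probe set. Of the calls, the share that was higher was 64.1%, against 57.5% after quantile normalization, 50.5% after median centring, which moved the median of all probe sets to -0.044, 49.8% with the trend and robust prior, 48.6% without OsRLCK253 replicate 1, 45.5% with a spread per probe set and 38.3% with array weights. Calls of at least 2-fold numbered 143, with 230 at a pseudocount of 1 and 88 with the 6 arrays alone. List members called numbered 18, with 35 under the filter, 7 with the 6 arrays alone and 45 with array weights.

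Leaving out 1 array gave 449 to 1388 calls, 320 to 675 higher, 129 to 713 lower, 86 to 155 of at least 2-fold and 9 to 17 list members. Without any 1 of the OsSAP11 arrays, 59, 65 or 68 of the 132 named genes lost their call. Of the same genes, 67 lost it with the 6 arrays alone. The cause of these moves was not tested.

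Same-numbered arrays of the lines had correlations of deviations from the group means of 0.18, -0.090 and 0.12. Arrays with different numbers had values from -0.25 to 0.11. With so few arrays these values cannot show whether the replicate numbers pair the arrays. With replicate number as a block there were 639 calls, 416 higher and 223 lower, with 11 list members called.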

Other observations

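Further called genes with symbols were seen in their values first and then chosen for description. The first 6 are nuclear genes for chloroplast proteins that were higher in the OsSAP11 line, and they form no list. The photosynthesis list itself had 0 of 6 genes called higher, 1 called lower and 4 with a lower mean in the OsSAP11 line, as had 13973 of the 22746 probe sets. PORB, a protochlorophyllide reductase of chlorophyll synthesis, had 4750.3, 3967 and 4604 in the OsSAP11 line and 2502, 2531 and 2403 in the OsRLCK253 line, against 5301, 4960.0 and 6188 in wild type (log2 difference 0.83 ± 0.097, adjusted p = 0.00913). CHL, a chloroplast lipocalin, had 1799, 1884 and 1863 in the OsSAP11 line and 859.6, 947 and 649 in the OsRLCK253 line, against 2313, 2193 and 2293 in wild type (log2 difference 1.18 ± 0.13, adjusted p = 0.00736). In both genes the OsRLCK253 line was the low one of the 3 groups. CHLI2, a magnesium chelatase subunit, CAF1, a splicing factor of chloroplast introns, ATAB2, a translation factor of chloroplast photosystem transcripts, and THIC, an enzyme of thiamine synthesis, had log2 differences of 0.45, 0.86, 0.45 and 0.75 (adjusted p = 0.00964, 0.0111, 0.0129 and 0.0119). These 6 genes were called in all 9 fits that left out 1 array. ATAB2 and THIC were called in 9 of the 10 other alternatives at the same threshold. Of 69 probe sets for the chloroplast genome itself, 3 were called higher and 1 lower, with a median of 0.037. Over all probe sets, 3.34% were called higher and 1.87% lower. XERICO, a RING-finger gene that raises abscisic acid when overexpressed, had 506, 576 and 613 in the OsSAP11 line and 343, 316 and 329.8 in the OsRLCK253 line, against 779.9, 666 and 708 in wild type (log2 difference 0.75 ± 0.083, adjusted p = 0.00821). NGA1, a B3-domain transcription factor gene, had 45.5, 47.6 and 44.6 in the OsSAP11 line and 15.3, 20.9 and 14.9 in the OsRLCK253 line, against 17.9, 12.1 and 16.7 in wild type (log2 difference 0.91 ± 0.092, adjusted p = 0.00651), and the OsSAP11 line alone was high.

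Among genes that were lower in the OsSAP11 line, AUR1, an Aurora kinase of mitosis, had 66.0, 76.9 and 66.0 in the OsSAP11 line and 127, 143 and 123 in the OsRLCK253 line, against 96.9, 79.8 and 109.9 in wild type (log2 difference -0.78 ± 0.11, adjusted p = 0.0151). Its call was lost without OsSAP11 replicate 1 or 3 (adjusted p up to 0.0569). TOPII, DNA topoisomerase II, had -0.62 ± 0.12 and ASF1B, a histone chaperone, had -0.50 ± 0.084 (adjusted p = 0.0334 and 0.024), and they lost their calls in 6 and 3 of the fits that left out 1 array (adjusted p up to 0.108 and 0.0851). GR1, a glutathione reductase gene, had 654, 638 and 585 in the OsSAP11 line and 873, 839 and 899 in the OsRLCK253 line, against 438, 457 and 483 in wild type. Its log2 difference was -0.47 ± 0.053 (adjusted p = 0.00886), and both lines were above wild type. CLE44, which encodes a peptide signal of vascular tissue, and LCR68, a defensin-like gene, had log2 differences of -0.62 ± 0.085 and -0.65 ± 0.085 (adjusted p = 0.014 and 0.0123). GLC was called through 1 of its probe sets, with -0.51, while its other, dimmer probe set had 0.0037 (adjusted p = 0.983).

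The 3 arrays of 1 line lay outside the range of the other in 50.6% of all probe sets. That share was 74.6% of the 9027 probe sets with a mean signal under 16, whose median log2 difference was -0.017, and 34.8% of the others, whose median was 0.036. Separation of the 3 arrays of each line is therefore common among dim probe sets with differences close to 0.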
